A study of Mus musculus with 9 samples.

Results

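The S100 genes described here are 10 members of a family of small calcium-binding proteins, taken by gene name from a deposited expression table of 22399 genes. They are S100a8 and S100a9, whose products pair to form calprotectin, and S100a1, S100a3, S100a4, S100a6, S100a10, S100a11, S100a14 and S100a16. Their RNA was measured in sorted basal keratinocytes of mouse plantar skin, the footpad, in 9 libraries of bulk RNA. All animals were wild-type (WT) C57BL/6 mice. The control group (n = 3) was 5 months old and ate a normal diet, the HFD group (n = 3) was 5 months old and ate a high-fat diet, and the aged group (n = 3) was 24 months old with no diet given in the labels. In all groups the cells were released with trypsin and sorted as CD49f positive and CD34 negative, and RNA was kept at an integrity number above 7. Whether replicate libraries stem from different animals is not given in the labels, so a p-value here covers only library-to-library spread, part of which can be technical.

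S100 proteins carry a pair of EF-hand calcium-binding loops and act mostly as dimers, which bind and regulate other proteins when calcium rises. Calprotectin is abundant in neutrophils and is made by keratinocytes in wounded or inflamed epidermis. Outside the cell it withholds zinc and manganese from microbes and acts as an alarm signal through receptors such as RAGE and TLR4. Several other S100 proteins bind annexins at membranes, and some are built into the cornified envelope of the outer epidermis. Most S100 genes lie in the epidermal differentiation complex, a chromosome region that also holds the late cornified envelope genes.

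All 10 genes were annotated on chromosome 3 of GRCm38, between S100a1 (start 90511034) and S100a10 (end 93564643), and 8 of them lay together at the S100a1 end. S100a8 occupied chr3:90668978-90670035 on the plus strand and S100a9 chr3:90692632-90695721 on the minus strand, each in 3 exons with no other annotated gene overlapping. S100a1 occupied chr3:90511034-90514392 on the minus strand, back to back with S100a13 on the plus strand (start 90514435). S100a4 was the member with the largest overlap, since 51.7% of its 584 exonic bases were shared with the predicted gene Gm42674 on the same strand, so its values are less certain.

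The promoter windows of the 3 genes on which the comparisons turn are shown, from 250 bases before to 50 after the RefSeq start (GRCm38.p6). Capitals mark matches on either strand to 5 motifs. These were AP-1 (TGANTCA), the TATA box (TATAAA), the E-box (CACGTG), a loose C/EBP type (TTNNGNAA) and a loose NF-kB type (GGG, then 5 bases of any kind, then CC). Such matches occurred in 7.81%, 13.6%, 7.15%, 40.7% and 50.8% of 32851 windows of the same length. The windows were chr3:90668821-90669120 (plus) for S100a8, chr3:90695672-90695971 (minus) for S100a9 and chr3:90514281-90514580 (minus) for S100a1.
S100a8: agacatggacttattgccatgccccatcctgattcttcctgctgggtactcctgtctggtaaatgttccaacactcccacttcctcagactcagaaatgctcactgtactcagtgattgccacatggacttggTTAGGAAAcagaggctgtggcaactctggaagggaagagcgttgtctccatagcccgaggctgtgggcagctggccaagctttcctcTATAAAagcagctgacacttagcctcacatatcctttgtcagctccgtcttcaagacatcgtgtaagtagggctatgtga
S100a9: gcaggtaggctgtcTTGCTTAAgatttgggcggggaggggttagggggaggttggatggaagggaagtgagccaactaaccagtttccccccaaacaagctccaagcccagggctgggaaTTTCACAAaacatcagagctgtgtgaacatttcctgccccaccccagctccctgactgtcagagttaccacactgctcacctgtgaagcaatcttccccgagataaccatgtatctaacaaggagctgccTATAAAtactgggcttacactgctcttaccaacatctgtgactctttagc
S100a1: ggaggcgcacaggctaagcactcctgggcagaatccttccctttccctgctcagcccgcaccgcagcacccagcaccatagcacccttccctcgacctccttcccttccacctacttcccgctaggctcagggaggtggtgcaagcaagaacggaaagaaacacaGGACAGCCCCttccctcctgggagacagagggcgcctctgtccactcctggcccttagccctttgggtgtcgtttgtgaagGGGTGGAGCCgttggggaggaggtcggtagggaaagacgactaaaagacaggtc
In the S100a8 window TATAAA began 30 bases before the start, and in the S100a9 window it began at the first base of the annotated start. Both calprotectin windows also held the C/EBP type, in 1 place for S100a8 and 2 for S100a9, and neither held the AP-1, E-box or NF-kB letters. The S100a1 window held the NF-kB type in 2 places and none of the other 4 motifs. These matches describe letters, not binding. Windows were listed for 8 of the 10 genes.

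Levels are given as FPKM, fragments per kilobase of gene scaled to the library's total, as the authors deposited them. The estimated depth was 23.5 to 35.8 M reads per library. The basal keratins Krt5 and Krt14 reached at least 10316 and 11012 FPKM in every library, and Cd34 did not exceed 0.0671 FPKM. The sorted cells also carried suprabasal keratins, since Krt1 and Krt10 had means of 1259.6 and 3865 FPKM in control. Of 10 neutrophil markers 7 were listed at 0 in all 9 libraries, including Mpo, Elane, Ltf and Ngp, and the highest value of the others was 0.351 FPKM. The 10 markers of myeloid and other white blood cells summed to 1.91 to 4.09 FPKM in control, 1.92 to 3.02 in HFD and 1.26 to 2.55 in aged. Cd68 was the largest part in control, at 1.13 to 2.14 FPKM. Within the list Itgam went up, at 0.0306 to 0.19 FPKM in control, 0.331 to 0.624 in HFD and 0.364 to 0.764 in aged. Fcer1g went the other way, at 0.282 to 0.367, 0 to 0.258 and 0 to 0.261 FPKM. Laptm5 lay below control in HFD, and Csf1r did so in aged.

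Per unit of length the family spanned about 3 orders of magnitude in these cells, and together the 10 genes made up 0.725% to 0.932% of the summed FPKM of a library. S100a11, a partner of annexin A1 and a cornified envelope component, stood highest in every group, at 835 ± 67.7 FPKM in control (SD, n = 3). S100a10, the p11 subunit that binds annexin A2, followed in control with 451 ± 30.8. S100a6, known as calcyclin, was at 380.5 ± 31.0, and S100a14, an epithelial S100, at 341 ± 11.8. S100a16, also common in epithelia, was at 214 ± 12.9 FPKM, S100a4, which binds non-muscle myosin, at 67.2 ± 6.26, and S100a1, best known from heart and skeletal muscle, at 22.7 ± 2.74. The control ranges of S100a6 and S100a14 overlapped, so their order is not resolved, whereas the ranges of the other neighbours down to S100a1 did not overlap. In HFD and aged libraries S100a6 had a higher mean than S100a10, with overlapping ranges in both groups.

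The lowest levels belonged to S100a3, S100a8 and S100a9. S100a3, a protein of the hair cuticle, had 0.744 to 0.916 FPKM in control, 0.348 to 0.857 in HFD and 0.377 to 0.802 in aged. Its mean missed the minimum of 1 FPKM that a gene needed to be tested, so 9 of the 10 genes were tested. Its values were not whole multiples of 1 read for the annotated exon length in 7 of 9 libraries, so they are less certain. In control libraries the range of S100a9 overlapped those of S100a3 and S100a8, while S100a3 lay above S100a8 without overlap.

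High-fat diet at equal age was compared with control to ask how the diet alters basal cells. Of the 9 S100 genes tested, 4 were higher in HFD and 0 were lower, by limma on log2(FPKM + 1) at a Benjamini-Hochberg adjusted p under 0.05. The 4 were S100a8, S100a9, S100a6 and S100a1. S100a8 met the minimum of 1 FPKM only through its HFD libraries, with means of 0.504 FPKM in control, 1.25 in aged and 7.79 in HFD. The counts here and in the comparisons with aged libraries include it. Without that filter S100a8 was still called in HFD (limma adjusted p = 0.0279). Among all 10367 genes tested 17.0% were called, 8.26% higher and 8.76% lower. The median change over the 9 genes was 0.27 on the log2 scale, beside 0.01 over all genes. The 3 HFD libraries lay above the 3 control libraries without overlap for 7 of the 9 and below for 0, where 20.8% of all genes lay above and 19.6% below. The estimate was above 0 for 9 of the 9, and for 51.5% of all genes. The same control libraries serve the comparison with aged animals, so those 2 comparisons are not independent.

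S100a8 was at 0.532, 0.657 and 0.323 FPKM in control replicates 1 to 3 and at 2.35, 7.23 and 13.8 in HFD. Every HFD library exceeded every control library, and the HFD libraries themselves differed widely. The ratio of the group means was 15.4, and the change in log2(FPKM + 1), which understates it at such low levels, was 2.31 ± 0.40 (SE, limma adjusted p = 0.00468, 95% interval 1.43 to 3.19). These FPKM stand for an estimated 12, 11 and 7 reads in control and 58, 136 and 247 in HFD. Over 20 other fits, 11 with another setting and 9 with 1 library left out, the S100a8 call held each time (highest limma adjusted p = 0.0279). On estimated reads, by limma's voom, the change was 3.46 and the adjusted p 0.0125.

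S100a9, the other calprotectin subunit, was at 1.59, 0 and 0.368 FPKM in control and at 2.80, 9.61 and 13.9 in HFD. Its groups did not overlap, and control replicate 2 was listed at 0, where 3 reads would have given 0.238 FPKM. The change in log2(FPKM + 1) was 2.47 ± 0.60 (limma adjusted p = 0.0188, 95% interval 1.16 to 3.78). The S100a9 call was less steady. S100a9 was not called when control replicate 2 or 3, or HFD replicate 2 or 3, was removed (limma adjusted p 0.0541 to 0.0750), without a filter on low values (0.0721), with limma's robust setting (0.0744), with a pseudocount of 0.1 (0.0504) and by voom (0.0688). With the smaller pseudocount the S100a9 change was 4.09, and by voom it was 4.32.

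**Figure D1:**
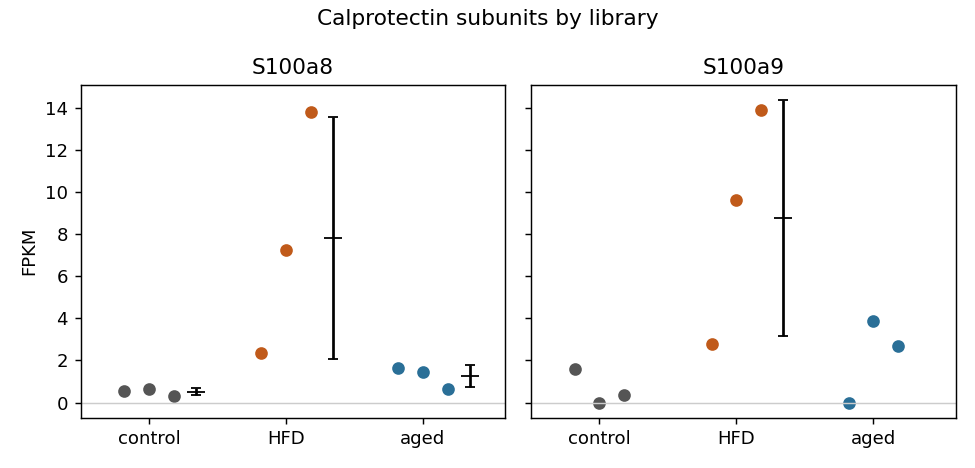
FPKM of S100a8 (left) and S100a9 (right) in each library, with control, HFD and aged on the horizontal axis, dots for replicates 1 to 3 from left to right, and a black mark with mean and SD (n = 3) for groups with no library at 0. The 3 HFD libraries sit at 2.35 to 13.8 and 2.80 to 13.9, above every control library.

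Within HFD, replicate 1 was lowest and replicate 3 highest for both subunits. Their ratio, S100a8 to S100a9 in FPKM, was 0.752 to 0.993 in HFD. Where levels were low the ratio was less even, at 0.334 in control replicate 1, 0.878 in control replicate 3, and 0.376 and 0.245 in aged replicates 2 and 3. In aged replicate 1 an estimated 38 reads of S100a8 stood beside 0 of S100a9. Over the 9 libraries, which share the group differences, Pearson's r of the 2 genes was 0.81 on log2(FPKM + 1).

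S100a6 was at 386, 347 and 408 FPKM in control and at 582, 567 and 463 in HFD. All HFD libraries were higher than all control libraries, with HFD replicate 3 nearest to control. The S100a6 change was 0.49 ± 0.15 (limma adjusted p = 0.0409, 95% interval 0.17 to 0.81). It was not called without any one of the 3 control libraries, without HFD replicate 1 or 2 (limma adjusted p 0.0631 to 0.137) or without a filter on low values (0.112).

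S100a1 was at 25.8, 20.5 and 21.8 FPKM in control and at 27.2, 27.5 and 27.7 in HFD. The HFD libraries were nearly equal, and the highest control library came close to them. The S100a1 change of 0.27 ± 0.09 was just called (limma adjusted p = 0.0485). It was called in 9 of 21 other fits, and was lost without control replicate 2 or 3, any HFD library or aged replicate 1 or 2 (limma adjusted p 0.0514 to 0.169). The call was also lost with the replicate block (0.0518), only the 6 libraries compared (0.0529), quantile scaling (0.0621), no filter (0.0779) and voom (0.252).

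The remaining 5 S100 genes tested were not called in HFD. S100a16 was at 206, 207 and 229 FPKM in control and 275, 260.1 and 233 in HFD, a difference of 0.26 ± 0.09 (limma adjusted p = 0.0638). S100a16 was called higher with library weights (0.0285), with a GC correction (0.37, 0.0303), with that correction and the replicate block (0.0242) and with only the 6 libraries compared (0.0496). S100a14 had 328 to 348 FPKM in control and 387 to 427 in HFD (0.27 ± 0.12, limma adjusted p = 0.127). S100a4 had 60.8 to 73.3 in control and 80.1 to 82.6 in HFD (0.27 ± 0.12, limma adjusted p = 0.136). The groups of these 3 genes did not overlap. S100a10 and S100a11 overlapped between groups, with 95% intervals of -0.07 to 0.34 and -0.13 to 0.28, which leave room for small changes in either direction.

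**Figure D2:**
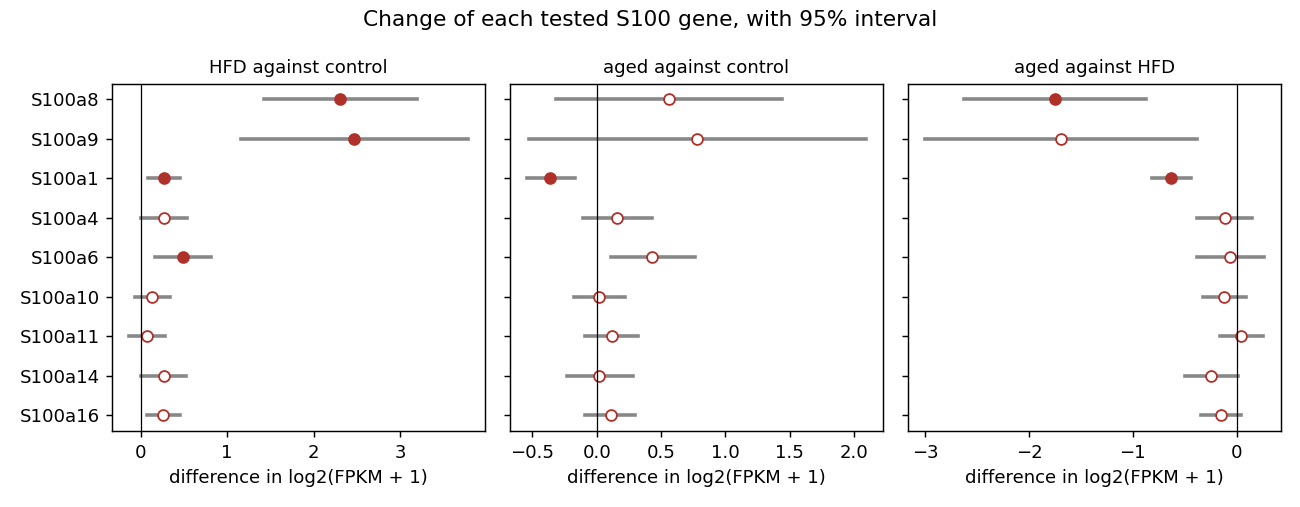
Difference in log2(FPKM + 1) of each of the 9 tested S100 genes (dots) with its 95% interval (lines) in the 3 comparisons, filled where the limma adjusted p was under 0.05; the horizontal scales differ between panels. S100a8 and S100a9 lie at 2.31 and 2.47 in HFD against control, and S100a1 lies on opposite sides of 0 in the first and second panel.

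Markers of some other cells moved with diet as well. The 7 sweat gland markers summed to 19.2 to 23.4 FPKM in control and 31.4 to 36.1 in HFD, carried by Ehf and Slc12a2, with Krt8, Krt18 and Krt19 near 0 and Foxa1 listed at 0. The 6 fibroblast markers summed to 4.51 to 6.64 FPKM in control and 1.50 to 2.55 in HFD, nearly all of it Dcn, with Lum listed at 0. Thy1, which carried a list of 6 T cell markers whose other members did not exceed 0.0647 FPKM, was at 45.9 to 53.3 FPKM in control and 31.9 to 37.3 in HFD. The 8 hair follicle markers, mostly Sox9, summed to 6.73 to 11.2 FPKM in control and 11.3 to 12.6 in HFD. The part of these markers in the S100 results was not tested. In bulk RNA, fewer cells of a type and less RNA per cell cannot be told apart. Neutrophil markers summed to 0.0272 to 0.275 FPKM in control and 0.102 to 0.278 in HFD, where all of it was Cxcr2. Whether any S100a8 or S100a9 RNA came from neutrophils was not tested.

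Animals of 24 months were compared with controls of 5 months to ask how age alters the same cells. Only 1 of the 9 S100 genes was called, S100a1, which was lower, while 0 were called higher. Among all genes 7.76% were called, 4.01% higher and 3.74% lower. The aged libraries lay wholly above control for S100a8 and wholly below for S100a1, where 13.7% and 14.1% of all genes did so. The estimate was above 0 for 8 of the 9, and for 48.8% of all genes. The median change over the 9 was 0.12, beside -0.01 over all genes.

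S100a1 was at 16.4, 17.4 and 18.5 FPKM in aged, below every control library. The change was -0.36 ± 0.09 (limma adjusted p = 0.0305, 95% interval -0.54 to -0.17). It was called in 13 of 21 other fits, and was lost without control replicate 1 or 3 or aged replicate 1 or 2 (limma adjusted p 0.0668 to 0.108), without a filter on low values (0.0570), with only the 6 libraries compared (0.0682) and by voom (0.0944). With the replicate block and a GC correction together the adjusted p of S100a1 was 0.0514.

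Calprotectin was not called in aged cells. S100a8 was at 1.65, 1.45 and 0.658 FPKM, with the lowest aged library barely above the highest control library (0.56 ± 0.40, limma adjusted p = 0.404). S100a9 was at 0, 3.86 and 2.69 FPKM, overlapping control (0.78 ± 0.60, limma adjusted p = 0.439, 95% interval -0.53 to 2.09). Krt1, a keratin of the layer above, rose in aged (0.61 ± 0.13, limma adjusted p = 0.0198). That call was lost with control replicate 1 or 3 or aged replicate 1 or 2 removed (0.0511 to 0.0729). It was also lost without a filter on low values (0.0877). Krt10 was not called (0.53 ± 0.17, limma adjusted p = 0.0761). Of 8 suprabasal markers, Krt1, Krt10 and Sbsn lay wholly above control and the rest overlapped, except Krt2. Krt2 lay wholly below, at 831 to 1190 FPKM in aged and 1410 to 2020 in control. The 8 summed to 8748 to 12193 FPKM in aged and 7879 to 10248 in control. The 8 hair follicle markers, mostly Sox9, summed to 15.4 to 16.8 FPKM in aged and 6.73 to 11.2 in control. Sweat gland markers summed to 24.0 to 26.1 FPKM in aged, above their control range, while Thy1, at 25.7 to 33.2, and the fibroblast sum, at 3.48 to 4.45, lay below theirs. Their part in the aged values was not tested.

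Aged replicate 3 stood below the other aged libraries in most members. S100a6 was at 586, 584 and 395 FPKM in aged replicates 1 to 3, S100a4 at 85.0, 83.3 and 59.5, and S100a14 at 387, 387 and 277. With all libraries S100a6 had a change of 0.43 ± 0.15 and was not called (limma adjusted p = 0.0913). Without aged replicate 3, S100a6 and S100a4 were called higher in aged (0.62 and 0.32, limma adjusted p = 0.00719 and 0.0295). With that library kept, S100a6 was also called higher in aged with library weights (0.52, limma adjusted p = 0.0382) and by voom (0.43, 0.0492), and S100a4 was called in none of the other fits. The same omission narrowed the shared spread, and 7 of 9 S100 genes were then called higher in HFD, S100a4, S100a14 and S100a16 joining the 4 above.

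**Figure D3:**
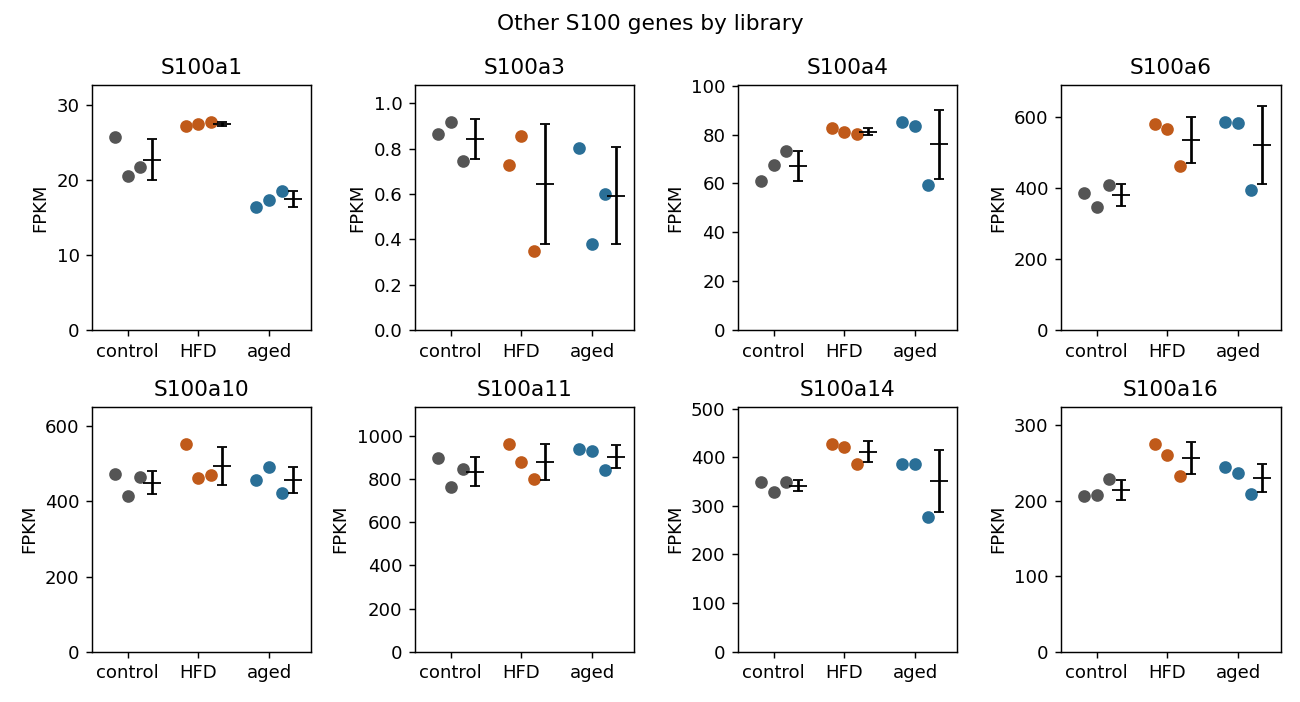
FPKM of the other 8 S100 genes in each library, 1 panel per gene with its own vertical scale from 0, dots for replicates 1 to 3 from left to right and a black mark with mean and SD (n = 3). Aged replicate 3, the right-hand blue dot, is lowest of the aged libraries for S100a4, S100a6, S100a10, S100a11, S100a14 and S100a16, and S100a1 separates all 3 groups.

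Aged and HFD libraries were compared directly, which tests whether the 2 conditions differ. S100a1 and S100a8 were lower in aged, 2 of the 9 genes, and 0 were higher, where 7.99% of all genes were called, 4.45% lower and 3.54% higher. These were also the 2 genes whose aged libraries lay wholly below HFD, with 0 wholly above, where 15.9% and 13.9% of all genes did so. The estimate was above 0 for 1 of the 9, and for 49.2% of all genes. S100a1 changed by -0.63 ± 0.09 (limma adjusted p = 0.00233, 95% interval -0.82 to -0.44), from 27.5 ± 0.260 to 17.5 ± 1.04 FPKM. That call held in all 21 other fits (highest adjusted p = 0.0149). S100a8, which met the minimum of 1 FPKM only through its HFD libraries, changed by -1.75 ± 0.40 (limma adjusted p = 0.0236). That S100a8 call was lost without a filter on low values (limma adjusted p = 0.089) and with the robust setting (0.0709). It was also lost with only the 6 libraries compared (0.0511), by voom (0.0523) and without HFD replicate 2 or 3 or aged replicate 3 (0.0624 to 0.0754). S100a9 had -1.69 ± 0.60 and was not called (limma adjusted p = 0.11). By the F test over the 3 groups S100a1, S100a8 and S100a9 were called (limma adjusted p = 0.00246, 0.00713 and 0.0318), where 20.4% of all genes were.

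**Figure D4:**
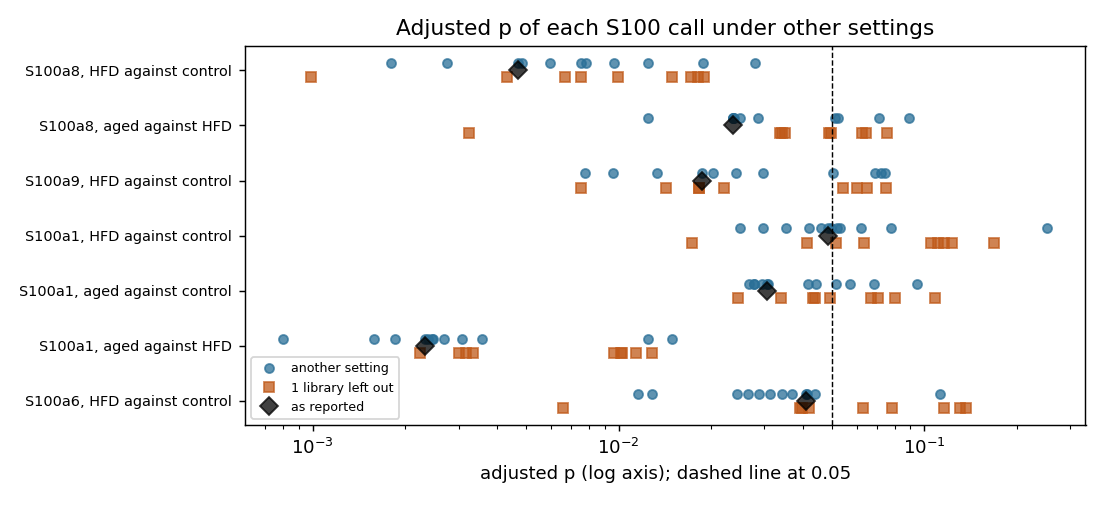
Adjusted p on a log axis for the 7 S100 calls, as reported (black diamonds), under other settings (blue dots) and with 1 library left out (orange squares), with a dashed line at 0.05. S100a8 in HFD and S100a1 in aged against HFD stay left of the line throughout, and the other 5 calls cross it.

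Of the rest of the S100 family in the table, S100a13, which lies head to head with S100a1, was the only gene tested. It was at 36.2, 32.5 and 38.1 FPKM in control, 48.3, 42.0 and 44.1 in HFD, and 31.8, 40.3 and 30.5 in aged. In HFD against control S100a13 was not called (0.32 ± 0.11, limma adjusted p = 0.0554). It was called higher there with a minimum of 5 FPKM (0.0479), library weights (0.0454) and the GC correction (0.0389). The same held with that correction and the replicate block (0.0493), only the 6 libraries compared (0.0254), and aged replicate 2 or 3 removed (0.0266 and 0.0393). S100a13 fell in aged against HFD (-0.39 ± 0.11, limma adjusted p = 0.0456). This call in aged against HFD was lost without any HFD library, control replicate 1 or 3, or aged replicate 1 or 3 (limma adjusted p 0.0533 to 0.139). It was also lost in 6 other settings, voom among them. S100b, a marker of glia and melanocytes, was listed at 0 in all libraries. S100a2, S100a5, S100a7a, S100a7l2, S100g and S100z stayed below 1 FPKM in every library. Of 7 S100-fused genes, which join an S100 domain to long repeats as in filaggrin, 3 were tested, and limma called 0 of them in the 3 comparisons.

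The other genes of the chromosome interval between the outermost members included late cornified envelope genes. Of 64 such genes 17 were tested, and 0 were called higher and 2 lower in HFD, with a median change of -0.21, where 8.26% of all genes were called higher and 8.76% lower. The 2 were the late cornified envelope genes Lce1a1, at 3.49 in control and 0.633 FPKM in HFD, and Lce1b, at 2.31 and 0.419. Lce1b was not called with HFD replicate 3 removed (limma adjusted p = 0.0545) or without a filter on low values (0.0539). Both genes met the minimum of 1 FPKM only through their control libraries, with means of 0.930 and 0.641 FPKM in aged. The counts of lower genes include both. The same 2 genes were lower in aged against control (-1.32 ± 0.30 and -1.02 ± 0.28), where 3.74% of all genes were called lower. The Lce1b call there ended in 12 of the other fits, 6 of them with 1 library left out. Lce1a1 kept its aged call except without control replicate 1 or 2, aged replicate 1 or 2, the filter or with a pseudocount of 0.1 (limma adjusted p 0.0543 to 0.0857).

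Receptors reported for S100 proteins were examined next. Of 12 listed receptor and TLR4 genes 8 were tested, with 1 higher and 1 lower in HFD, where 8.26% of all genes were higher and 8.76% lower. Nptn, neuroplastin, a receptor reported for S100a8, rose from 40.2 to 51.9 FPKM (0.36 ± 0.09, limma adjusted p = 0.0226). Ager, which encodes RAGE, fell from 1.64 to 0.586 FPKM (-0.72 ± 0.16, limma adjusted p = 0.0139). With a mean of 1.08 FPKM in aged, Ager met the minimum of 1 FPKM only through its control libraries. Tlr4 did not exceed 0.697 FPKM in any library and was not tested. In aged, Mcam, an adhesion molecule also reported to bind calprotectin, rose from 1.21 to 4.35 FPKM (1.27 ± 0.14, limma adjusted p = 6.3e-04). Mcam and Alcam, a related adhesion molecule, were also higher in aged than in HFD (0.86 ± 0.14 and 0.65 ± 0.16). With a GC correction Nptn had a change of 0.21 and was not called (limma adjusted p = 0.126). Nor was it called with control replicate 1 or 2 or HFD replicate 2 or 3 removed (0.0504 to 0.0750) or without a filter on low values (0.0501). Ager was not called once HFD replicate 1 was removed (0.0525) or with the replicate block and GC correction together (0.061). Alcam was not called with any HFD library or aged replicate 1 or 3 removed (0.0515 to 0.106) or without a filter on low values (0.0885).

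Of 13 annexins and other binding partners, all tested, 3 were higher in HFD and 0 lower, with a median of 0.16, where 8.26% of all genes were higher and 8.76% lower. Ahnak, the giant scaffold that binds the S100a10 and annexin A2 complex, was at 54.4 to 57.5 FPKM in control, 79.4 to 88.4 in HFD and 66.1 to 71.8 in aged. Its 3 groups did not overlap, and Ahnak rose by 0.57 ± 0.07 in HFD (limma adjusted p = 0.00135) and by 0.31 ± 0.07 in aged (0.0211). Removing control replicate 2 or 3 or aged replicate 2 ended the aged call of Ahnak (0.0521 to 0.0741). Anxa6, annexin A6, rose from 1.71 to 3.69 FPKM in HFD (0.79 ± 0.15, limma adjusted p = 0.00627). Sugt1, a co-chaperone bound by S100a6, was the third and was named after its values were seen (0.38 ± 0.09). With the GC correction Sugt1 was at 0.24 (limma adjusted p = 0.0930), and removing control replicate 2 or HFD replicate 1 or 3 gave 0.0552 to 0.0577. In aged, Ahnak was higher and Anxa11, a partner of S100a6, was lower (-0.57 ± 0.10, limma adjusted p = 0.00785).

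Genes that act above calprotectin in keratinocytes were examined as well. Of 17 genes of interleukin 17, interleukin 1, NF-kB, C/EBP and AP-1 control, 0 were higher and 4 lower in HFD, with a median of -0.17, where 8.26% of all genes were higher and 8.76% lower. These were Fosl1, an AP-1 subunit, from 6.39 to 3.08 FPKM (-0.87 ± 0.23, limma adjusted p = 0.0252), and Il17rc, Il1r1 and Rela, named after their values were seen, at -0.39 ± 0.10, -0.35 ± 0.09 and -0.28 ± 0.09. Fosl1 was not called with control replicate 1 or 2 or HFD replicate 1 or 3 removed (0.0584 to 0.0961), nor with no filter (0.0835) or the GC correction (0.0520). With the GC correction Rela was at -0.09 and Il17rc at -0.14 (limma adjusted p = 0.520 and 0.251). Without a filter on low values Rela and Il17rc were not called either (0.0779 and 0.0563). Each of Rela, Il1r1 and Il17rc lost its call with some single library removed (0.0597 to 0.144). In aged, 3 were higher and 0 lower, where 4.01% of all genes were higher and 3.74% lower. They were Jun (1.49 ± 0.19), Junb (0.83 ± 0.15) and, named after its values were seen, Nfkbia (0.71 ± 0.18). Nfkbia was not called with any control library or aged replicate 2 or 3 removed (limma adjusted p 0.0543 to 0.115). The same held without a filter on low values (0.103) and with only the 6 libraries compared (0.0534).

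Other alarmins and antimicrobial genes were often too low to test. Of 20 listed, 18 were in the table and 8 were tested. In HFD 1 was higher and 0 lower, where 8.26% of all genes were higher and 8.76% lower. It was Il1rn, the interleukin 1 receptor antagonist, which went from 4.31 to 7.81 FPKM (0.73 ± 0.13, limma adjusted p = 0.00477). Il1rn was also the 1 gene called in aged (0.81 ± 0.13, limma adjusted p = 0.00450), where 4.01% of all genes were called higher. Defb1, a defensin, was not called there (0.52 ± 0.17, 0.0812), but was called with control replicate 1 or aged replicate 3 removed (0.0118 and 0.0474) and with the replicate block (0.0149). Hmgb1, a nuclear protein that acts as an alarmin when released, was lower in aged than in HFD (-0.36 ± 0.08), and Defb1 was higher (0.78 ± 0.17). Hmgb1 lost its call with HFD replicate 1 or 3 or aged replicate 1 or 3 removed (0.0556 to 0.0811). It also lost it with the replicate block and GC correction together (0.0595). Defb1 lost its call with HFD replicate 2 or 3 or aged replicate 1 removed (0.0504 to 0.0701) and without a filter on low values (0.0703). Of 14 genes of activated epidermis 10 were tested, and Krt6a, a keratin of wounds and footpads, was the 1 called in HFD. Among all genes 17.0% were called there. Krt6a was at 140.4, 103 and 115 FPKM in control, 167, 315 and 269 in HFD, and 82.5, 94.1 and 97.6 in aged. Its HFD libraries lay above all others (1.02 ± 0.19, limma adjusted p = 0.00627). Krt16 had a wide HFD spread of 31.2 to 73.3 FPKM and was not called (0.59 ± 0.25, limma adjusted p = 0.117). It was called higher in HFD with library weights (0.0499) and with HFD replicate 1 removed (0.0343).

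**Figure D5:**
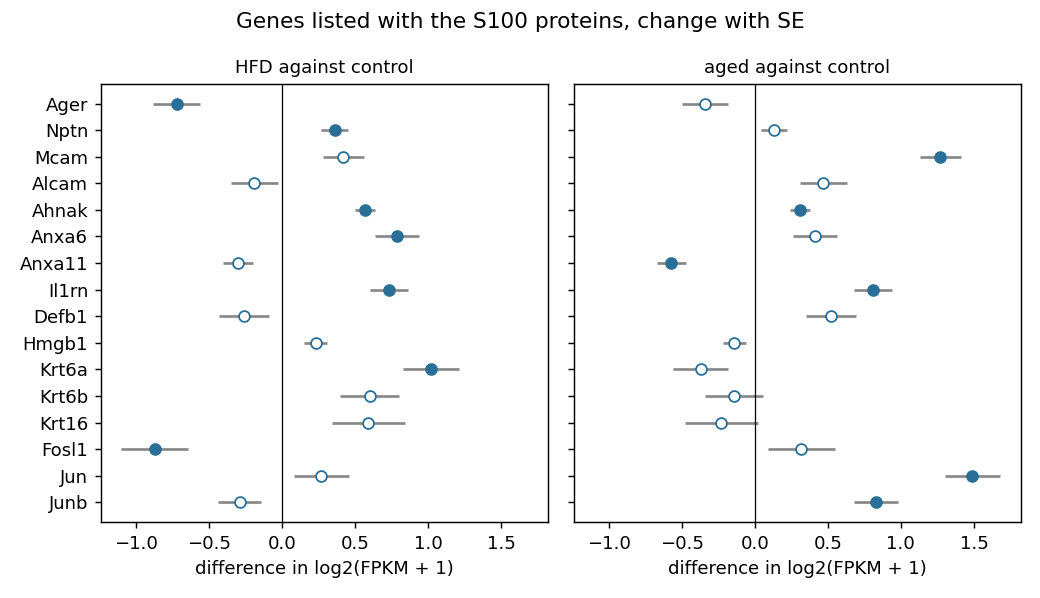
Difference in log2(FPKM + 1) with its SE for 16 receptor, partner, alarmin, keratin and AP-1 genes, in HFD against control (left) and aged against control (right), filled where the limma adjusted p was under 0.05. Krt6a lies at 1.02 in HFD, and Jun and Mcam lie at 1.49 and 1.27 in aged.

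The genes whose levels followed the mean of S100a8 and S100a9 most closely over the 9 libraries were Ids (Pearson's r = 0.975), Cnot6l (0.971), Cald1 (0.957), Zwint (0.951), Cdc27 (0.948) and Myadm (0.948). These were the highest of the 10367 genes tested, with predicted gene models and the 2 calprotectin genes left out. The ranking rests on only 9 libraries that share the group differences, so the values are a description. Cald1, the actin-binding protein caldesmon, was at 1.45 to 2.25 FPKM in control, 3.22 to 4.52 in HFD and 1.90 to 2.31 in aged. Myadm, a membrane protein, was at 10.6 to 12.3 FPKM in control and 17.3 to 23.4 in HFD, and reached at most 15.1 in aged. Zwint, a kinetochore protein, was at 13.4 to 13.8, 13.8 to 15.9 and 13.4 to 14.1 FPKM in control, HFD and aged. As these genes were picked for following calprotectin, no test of their groups is given. For S100a1 the closest gene was Cyb561d2 (0.958), and for S100a6 it was Uqcrh, a subunit of respiratory complex III (0.979). Among the S100 genes themselves r was 0.85 to 0.88 between S100a16 and each of S100a4, S100a6 and S100a14, and -0.11 to 0.03 between S100a1 and each of S100a4, S100a6 and S100a11.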

How the data were processed

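Bulk mRNA libraries (TruSeq stranded) were made from sorted basal cells, 3 per group, per the labels. The authors deposited 1 table of FPKM with a column per library. Per the submitters' processing notes the tools were STAR 2.6.0c, HTSeq 0.11.2, DESeq2 1.30.0 and cutadapt, with mm10, their roles unstated. How FPKM and gene lengths were made and whether counting used strand are not given in the sources used here. FPKM times the merged exon length of GENCODE M21 (GRCm38, 22362 genes matched) fell on whole multiples of 1 step for 97.5% to 98.2% of values up to 30 reads (tolerance 0.02), which gave estimated reads.

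The test was limma 3.58.1 (R 4.3.3; eBayes with a trend, two-sided, 1 mean per group, all 9 libraries), applied to log2(FPKM + 1). Genes averaging 1 FPKM or more over the 9 libraries entered it, 10367 in all. Adjusted p-values are Benjamini-Hochberg over all genes tested, with a threshold of 0.05. The fit was tested on simulated data. The members and lists were chosen with earlier results of these data known. Named genes were the 10 members, up to 3 per list with the smallest F test p, and the genes closest in pattern, predicted gene models left out. Other called list genes were added after their values were seen. Alternatives were a pseudocount of 0.1, no filter or a minimum of 5 FPKM, median-ratio and quantile scaling, robust and weighted fits, a replicate block, a GC correction, both together, only the 6 libraries compared, each library left out, and, chosen after seeing the data, voom on estimated reads. Promoter sequences came from RefSeq.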

Additional observations from a re-analysis of the deposited data

How the results depend on the processing

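Directions of the 7 S100 calls held in every fit run. The number of S100 genes called in HFD against control, 4, became 1 without a filter on low values, 2 with a minimum of 5 FPKM, which leaves S100a8 and S100a9 out, and 2 by voom, 5 with library weights, the GC correction or that correction with the replicate block, 6 with only the 6 libraries compared, and ranged from 1 to 7 with 1 library left out. In aged against control the 1 call became 0 without the filter, with the replicate block and GC correction together and with only the 6 libraries compared, 2 with library weights, and 0 to 3 with 1 library left out, and by voom the 1 call was S100a6 in place of S100a1. In aged against HFD the 2 calls became 1 without the filter, with the minimum of 5 FPKM, with the robust setting, with only the 6 libraries compared and by voom, and 1 to 2 with 1 library left out. By the F test 3 became 5 with the replicate block and GC correction, and 2 to 6 with 1 library left out.

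Over all genes, the GC correction gave 1161 calls in HFD (606 higher, 555 lower) in place of 1764, only 6 libraries gave 469 in aged against control in place of 804, and no filter gave 541 in aged against HFD in place of 828. With 1 library left out the counts were 749 to 2109 in HFD against control, 300 to 1247 in aged against control and 379 to 782 in aged against HFD. The cause was not tested.

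Same-numbered libraries of different groups deviated together in part (r from -0.05 to 0.27 over 9 pairs, 5 over 0.1). Differently numbered libraries of different groups had r from -0.29 to 0.22. Whether the numbers mark a shared batch was not tested. The main fit did not use the numbers, and the replicate block was run beside it. The replicate block ended the S100a1 call in HFD (limma adjusted p = 0.0518) and changed no other call of the 10 genes in the 3 comparisons. By the F test it gave 4 S100 genes called in place of 3. S100a8 and S100a9 rest on few reads in control, at most 27, so their control levels are imprecise.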
